A study of Mus musculus with 8 samples.

Results

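Cyclic nucleotide phosphodiesterases (PDEs) are the enzymes that break down cAMP and cGMP, and 10 of their genes were followed here across the cell types of mouse pancreatic islets: Pde1c, Pde3a, Pde3b, Pde4a, Pde4b, Pde4d, Pde7b, Pde8a, Pde8b and Pde10a. They were listed by name, and all 10 were among the 17362 genes of the table. Single nucleus RNA-seq (snRNA-seq) had been performed on cultured islets of wild type (WT) mice and of mice carrying a whole-body knock-in of Med14 S983A, a serine to alanine change in the Mediator subunit Med14. Islets of both genotypes had no stimulus (CON), the adenylyl cyclase activator forskolin (FSK) or the GLP-1 receptor agonist Exendin-4 (Ex-4). Ex-4 was given at 10 nM for 16 h, FSK was also given for 16 h, and no FSK dose for islets was found. The resources list gives the Med14 S983A mice as C57BL/6J, and the strain of the WT mice and the sex and age of either were not found. Islets were pooled within a condition, and nuclei were sorted on DAPI before barcoding. Since the knock-in leaves the Med14 gene in place, gene counts do not check the genotype labels.

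The table gives a single pooled value for a gene in each of 54 columns, 6 conditions by 9 annotated cell types. Its 8 sequenced sublibraries each hold nuclei of all 6 conditions, so a sublibrary is no replicate of a condition. No spread between replicates could be measured and no test was run. Condition, islet preparation and barcoding wells cannot be told apart. Values are counts per 10000 counts of the column (CP10K) with exact 95% Poisson intervals, and ratios carry exact 95% intervals for a pair of counts. Both cover counting error only. "Higher" and "lower" as calls mean a difference of at least 0.585 in log2(CP10K + 1), which is 1.5-fold on that scale, among genes that passed a filter on low values. That scale understates the change of genes near or under 1 CP10K, and the linear ratio is therefore given as well. Fewer nuclei expressing a gene and less RNA in each nucleus cannot be told apart in pooled values.

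Column totals ran from 1915006 to 3094377 counts in beta cells, 269394 to 810127 in alpha cells and 362410 to 631433 in delta cells, and the other types lay between 1522 (ductal cells) and 159305 (endothelial cells). The hormones followed the labels, with Gcg at 59.7 CP10K in alpha cells and 3.35 in the next type, Sst at 3.94 in delta cells and 0.328 in the next, and Ppy at 9.65 in PP cells and 0.797 in the next. Ins2 was 12.3 in beta cells and 6.53 in the columns annotated as neurons. Rbfox3, a neuronal marker, was 1.23 there and 4.54 in delta cells, so that marker did not bear out the neuron label. The summed level of 4 macrophage markers was 0 CP10K in both Ex-4 macrophage columns and 9.75 to 18.7 in the other macrophage columns. Macrophage sums over the 6 conditions include these Ex-4 columns. In ductal columns Krt19 was absent, Cftr had 4 counts, and 5 ductal markers together had 48. Relative to beta cells, the summed level of 8 beta cell markers was 54.4% in WT CON alpha cells, 27.7% to 39.2% in the other alpha columns and 11.9% to 22.1% in delta columns. Whether these counts came from beta cell RNA carried over to other columns was not tested, nor was their part in the results.

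PDEs set how high and how long cAMP rises after a receptor is stimulated, and in beta cells they restrain the action of incretins on insulin secretion. PDE1 enzymes are activated by calcium and calmodulin, and PDE10A acts on both cyclic nucleotides. PDE3 enzymes hydrolyze cAMP and are inhibited by cGMP, and PDE3B is the well known isoform of beta cells and fat. PDE4, PDE7 and PDE8 enzymes are specific for cAMP. Several of these genes are very long and have many alternative starts.

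In GRCm39, Pde4d spans 1506 kb (chr13:108586482-110092497), Pde1c 583 kb (chr6:56046784-56629472), Pde4b 521 kb (chr4:101944740-102465716) and Pde10a 461 kb (chr17:8744204-9205482). Pde7b spans 327 kb (chr10:20273567-20600886), Pde3a 258 kb (chr6:141194888-141453174) and Pde8b 226 kb (chr13:95160559-95386844). The shortest are Pde3b at 125 kb (chr7:114013685-114138486), Pde8a at 121 kb (chr7:80862941-80984284) and Pde4a at 51.5 kb (chr9:21073005-21124544). No other protein-coding gene overlaps them. Each overlaps 2 to 16 other annotated loci, and whether strand was used in counting is not stated, so reads of those loci may be included. Nuclear RNA holds unspliced transcripts, which favors long genes, and levels of different genes are compared below only per 100 kb of gene.

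Since both agents act through cAMP, the starts of the 10 genes were read for the CRE, the motif bound by the cAMP-responsive factor CREB. The full motif TGACGTCA, the same on both strands, and its short form TGACG, sought on either strand and contained in the full motif, were searched from 250 bases before to 50 after each coding transcript start of GENCODE M39. Of 85 starts of the 10 genes, 1 held the full motif and 11 the short form. Among 51309 starts of 13557 coding genes, 2.28% held the full motif and 25.3% the short form. Counted by gene, the shares were 4.29% and 44.4%, and 1 and 8 of the 10 PDE genes. Shown are the full motif of Pde7b and the short forms at Pde10a and Pde4d, genes that recur in the results, on the strand of the gene with the motif in capitals.
Pde7b: actaaacccttTGACGTCActctcgaaatg
Pde10a: gaggctgcagaCGTCAtcgcctcctgt
Pde4d, first site: cgagctctgctCGTCAagtgatctttg
Pde4d, second site: ggggaggagggTGACGttgaacaggct
The Pde7b stretch lies at chr10:20600912-20600941 on the minus strand, outside the gene, with its motif 44 bases before the start. The Pde10a stretch lies at chr17:8743958-8743984 on the plus strand, also outside the gene, 235 bases before a start. Both Pde4d stretches precede 1 internal start, within an intron of the gene, at chr13:109396946-109396972 and chr13:109396983-109397009 on the plus strand, 231 and 194 bases before it. Pde1c, with 17 starts, and Pde3a, with 1, held neither form in these windows. Such matches of letters are a description only.

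Each gene had its own distribution over the cell types when the counts of the 6 conditions were summed. These sums include the FSK columns, so the order of cell types can differ from that under CON. Pde10a was highest in delta cells, at 72.7 (71.8 to 73.7) CP10K, then in beta cells at 54.9 (54.5 to 55.3) and in muscle columns at 35.4 (33.3 to 37.6). PP cells, at 28.4 (26.8 to 29.9), and alpha cells, at 28.1 (27.6 to 28.7), had overlapping intervals. It was lower in macrophages (12.5) and endothelial cells (9.28), and ductal cells had 17 counts in all. Under WT CON alone, muscle columns had 13.6, alpha cells 9.95, endothelial cells 9.07, macrophages 8.63 and PP cells 6.59 CP10K. Delta cells exceeded beta cells and beta cells exceeded alpha cells in each of the 6 conditions. The ratio of beta to alpha cells was 3.06 in the median condition and ran down to 1.34.

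Pde4d, the longest gene of the family, was low in beta cells. It was highest in endothelial cells at 47.8 (46.2 to 49.4) CP10K, followed by PP cells at 33.1 (31.5 to 34.8), alpha cells at 27.9 (27.3 to 28.4) and delta cells at 23.8 (23.3 to 24.4). Beta cells held 5.94 (5.82 to 6.07), within counting error of macrophages at 6.28 (5.19 to 7.54). The ratio of beta to alpha cells lay between 0.117 and 0.305 over the 6 conditions, and that of beta to delta cells between 0.168 and 0.302.

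Pde7b set alpha cells apart from the other endocrine types. It was 0.314 (0.259 to 0.379) CP10K in alpha cells, against 2.46 (2.39 to 2.54) in beta, 2.43 (2.26 to 2.62) in delta and 2.23 (1.82 to 2.70) in PP cells, of which the last 3 intervals overlap. Endothelial cells had the highest level at 5.30 (4.78 to 5.87). Pde3a was highest in muscle columns at 25.2 (23.5 to 27.1) and was 1.11 (0.991 to 1.23) in delta, 0.512 (0.477 to 0.549) in beta and 0.0907 (0.0620 to 0.128) in alpha cells. It had 0 counts in macrophages and ductal cells, which allows up to 0.164 and 0.583 CP10K (3 counts).

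Pde3b and Pde1c were found at similar levels across endocrine cells. Pde3b was 3.73 (3.20 to 4.33) CP10K in PP, 2.88 (2.69 to 3.08) in delta, 2.84 (2.76 to 2.93) in beta and 2.35 (2.19 to 2.51) in alpha cells, and 0.460 in endothelial cells. Pde1c was 6.43 (6.17 to 6.70) in alpha, 5.88 (5.20 to 6.62) in PP, 5.53 (5.41 to 5.65) in beta and 4.40 (4.17 to 4.65) in delta cells, and 1.19 in endothelial cells. Beta and delta cells did not differ beyond counting error in Pde3b, nor did alpha and PP cells in Pde1c.

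Of the remaining isoforms, Pde4b, Pde8a and Pde4a were lower in endocrine than in endothelial cells. Pde4b was 7.49 (6.86 to 8.16) CP10K in endothelial cells, against 0.906 in beta, 0.908 in delta and 0.297 in alpha cells. Pde8a was 4.56 (4.07 to 5.09) in endothelial cells, 1.94 (1.87 to 2.01) in beta cells and 1.04 to 1.14 in alpha, delta and PP cells. Its relative Pde8b was 0.530 (0.457 to 0.611) in alpha cells and 0.0263 (0.0188 to 0.0358) in beta cells, the latter from 40 counts, so that beta cells had more Pde8a and alpha cells more Pde8b. Pde4a was 0.747 (0.558 to 0.980) in endothelial cells and 0.0624 to 0.0774 in beta, alpha and delta cells.

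**Figure D1:**
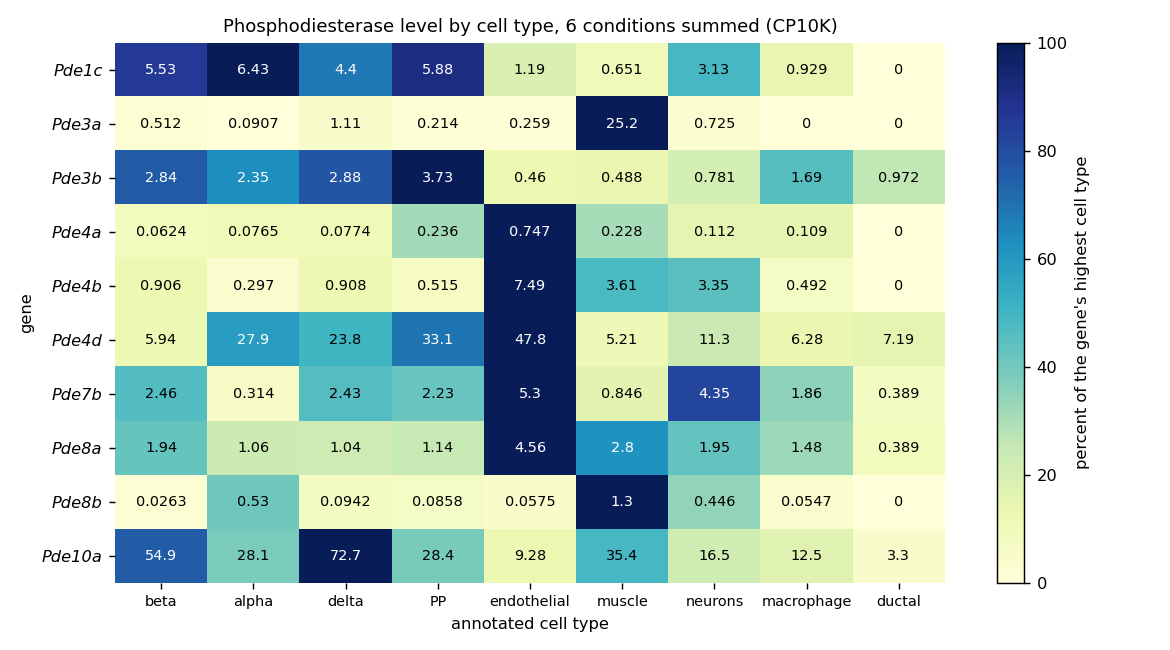
Level of each PDE gene (rows) in the 9 annotated cell types (columns), with the counts of the 6 conditions summed. Numbers are CP10K and the color gives each level as a percent of the highest cell type of that gene, so every row has its own scale. Pde3a and Pde8b were highest in muscle columns, Pde4a, Pde4b, Pde4d, Pde7b and Pde8a in endothelial cells, Pde10a in delta, Pde1c in alpha and Pde3b in PP cells.

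Between cell types, 3.01% of all tested genes differed past 1.5-fold in the same direction in all 6 conditions for beta against alpha cells, 2.79% for beta against delta and 2.64% for alpha against delta. Among PDE genes, Pde7b (higher in beta) and Pde4d (lower in beta) did so for beta against alpha, Pde4d (lower in beta) for beta against delta, and Pde7b and Pde10a (lower in alpha) for alpha against delta. The 3 pairs share columns and are not independent.

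Per 100 kb of gene, the leading isoform of WT CON beta cells was Pde10a at 6.69 CP10K per 100 kb, ahead of Pde3b at 2.94, Pde8a at 2.07 and Pde7b at 0.979. Delta cells had Pde10a at 8.16, Pde3b at 2.90, Pde4d at 2.19 and Pde7b at 1.71. In alpha cells Pde3b (3.46) and Pde4d (3.17) came before Pde10a (2.16). Pde3a led the WT CON muscle column at 18.1 CP10K per 100 kb.

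After FSK, Pde10a was higher in beta, alpha and delta cells of both genotypes. Levels in beta cells under CON, FSK and Ex-4 were 30.9, 107 and 26.5 CP10K for WT, against 22.5, 106 and 24.7 for the mutant. Alpha cells had 9.95, 79.4 and 8.13 for WT, against 7.47, 74.0 and 7.39 for the mutant. Delta cells had 37.6, 139 and 42.5 for WT, against 31.2, 139 and 34.9 for the mutant. In each cell type both FSK columns stood apart above the other 4. The ratio of FSK to CON in beta cells was 3.46 (3.38 to 3.54) for WT, a log2 difference of 1.76, and 4.69 (4.54 to 4.85) for the mutant. Alpha cells had ratios of 7.99 (7.19 to 8.89) and 9.90 (9.11 to 10.8), and delta cells of 3.69 (3.48 to 3.92) and 4.46 (4.24 to 4.70). By log2 difference Pde10a ranked 1 of 9487 genes in WT and 1 in mutant alpha cells, and 12 and 3 of 10093 in beta cells.

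Under FSK, the mutant to WT ratio of Pde10a was 0.989 (0.973 to 1.01) in beta, 0.931 (0.886 to 0.979) in alpha and 1.00 (0.970 to 1.04) in delta cells. Under CON it was 0.729 (0.703 to 0.756), 0.751 (0.662 to 0.853) and 0.829 (0.772 to 0.890) in the same order of cell types. The mutant thus started lower and was close to WT under FSK in all 3 types, in alpha cells with an interval below 1.

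PP cells and muscle columns also had more Pde10a after FSK, and endothelial cells did so beyond counting error only in the mutant. PP cells had 6.59 CP10K in CON and 83.1 in FSK for WT, a ratio of 12.6 (9.12 to 17.8), and the mutant ratio was 19.4 (14.7 to 26.2). Muscle columns had 13.6 and 75.5 for WT, a ratio of 5.54 (3.91 to 8.08), and a mutant ratio of 8.86 (6.58 to 12.2). Endothelial cells under CON, FSK and Ex-4 had 9.07, 9.97 and 3.60 for WT, against 4.90, 17.7 and 7.84 for the mutant, with FSK ratios of 1.10 (0.793 to 1.51) and 3.62 (2.80 to 4.73).

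The share of the beta cell level held by other cell types differed between Pde10a and the beta cell markers. From WT CON to WT FSK, Pde10a in alpha cells went from 32.2% to 74.4% of its level in beta cells, while the summed beta cell markers went from 54.4% to 36.0%. In PP cells Pde10a went from 21.3% to 77.8%, and the markers from 23.2% to 2.64%. In WT FSK endothelial cells Pde10a was 9.34% and the markers 6.72% of the beta cell level.

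**Figure D2:**
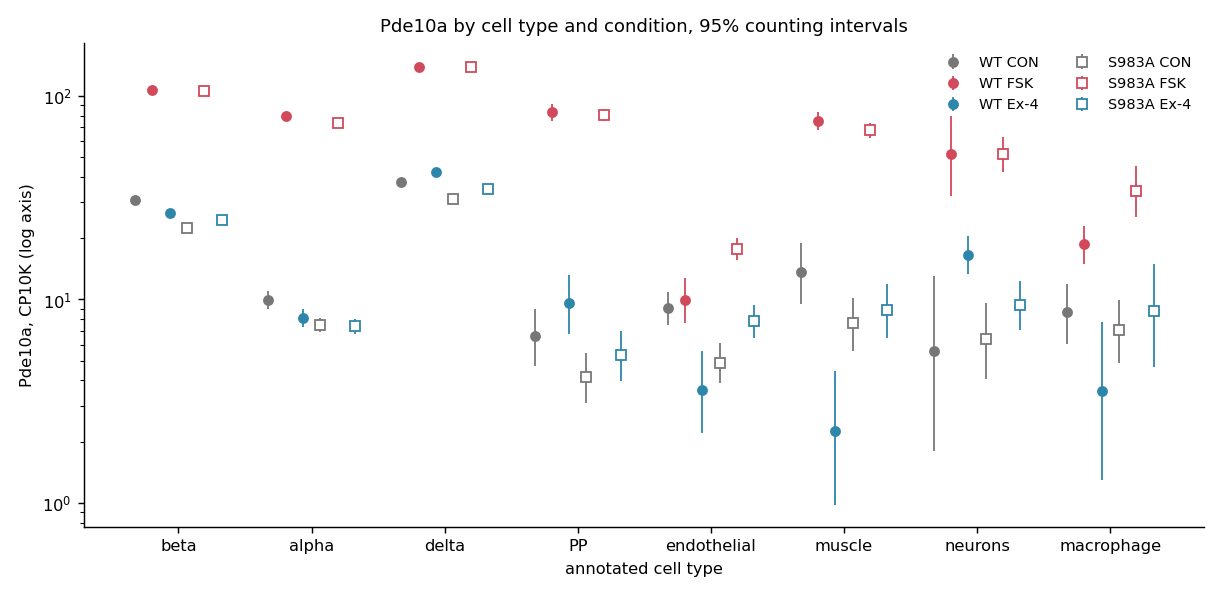
Pde10a in CP10K (log axis) in 8 annotated cell types, with a point for each of the 6 conditions and its 95% counting interval. FSK points lie above the CON points of the same genotype in each type shown, and in WT endothelial cells the difference, 9.07 against 9.97, is within counting error.

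Pde1c, the calcium-regulated isoform, was also higher after FSK in beta and alpha cells of both genotypes. Levels in beta cells under CON, FSK and Ex-4 were 3.55, 10.6 and 3.31 CP10K for WT, against 3.02, 8.18 and 3.27 for the mutant. Alpha cells had 3.55, 13.6 and 3.12 for WT, against 2.46, 15.6 and 2.39 for the mutant. FSK columns were again the highest, with ratios to CON of 2.98 (2.78 to 3.19) and 2.71 (2.46 to 2.97) in beta cells of WT and mutant, and of 3.82 (3.15 to 4.66) and 6.35 (5.46 to 7.41) in alpha cells. In delta cells the WT ratio was 1.61 (1.31 to 1.98), a log2 difference of 0.572 just short of the threshold, and the mutant ratio of 2.00 (1.66 to 2.42) was past it.

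Of the 9 PDE genes that passed the filter in WT beta cells, 2 were higher after FSK (Pde1c and Pde10a) and 0 lower, where 2.24% of all tested genes were past the threshold in either direction. WT alpha cells had the same 2 higher, where 2.51% of all genes were past it. In WT delta cells Pde10a was higher and Pde7b lower, where 4.79% were. Pde8b did not pass the filter in beta cells, nor Pde4a in alpha and delta cells. A second rule asked for a linear ratio of 1.5 with a counting interval apart from 1, and 34.1% of all WT beta genes met it after FSK. By that rule Pde4b and Pde4d were also higher and Pde3a and Pde4a lower. Pde4d was just inside the log2 threshold, at 0.576, and so not called.

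Pde7b, with the full CRE printed above, was lower after FSK in WT delta cells. Levels there under CON, FSK and Ex-4 were 5.60, 1.66 and 2.55 CP10K for WT, against 2.08, 1.60 and 2.17 for the mutant. WT CON was the high column and the other 5 lay from 1.60 to 2.55, so the size of this difference turns on that column. Both FSK columns were the lowest. The FSK to Ex-4 ratio was 0.652 (0.477 to 0.886) for WT and 0.737 (0.560 to 0.968) for the mutant. The FSK to CON ratio was 0.296 (0.223 to 0.390) for WT, rank 11 from the bottom of 9256 genes, and 0.768 (0.583 to 1.01) for the mutant. Beta cells had 3.20, 3.70 and 1.60 for WT, against 1.38, 2.66 and 1.51 for the mutant, and the WT ratio was 1.15 (1.06 to 1.26).

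In mutant islets, 5 of 9 PDE genes were higher after FSK in beta cells (Pde1c, Pde3b, Pde4d, Pde7b and Pde10a), where 7.83% of all genes were past the threshold. In alpha cells 4 were (Pde1c, Pde4d, Pde8b and Pde10a), where 4.02% of all genes were past it, and in delta cells 6 (Pde1c, Pde3a, Pde3b, Pde4b, Pde4d and Pde10a), where 7.91% were. None was lower in these 3 cell types. Over all genes, 5.12% were higher and 2.70% lower in beta, 3.13% and 0.885% in alpha and 5.47% and 2.44% in delta cells. The second rule was met by 47.5% of all genes in mutant beta cells and by 7 PDE genes, all higher.

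Pde4d, a major cAMP-specific isoform, had 3 high and 3 low columns in alpha cells. Under CON, FSK and Ex-4 its levels there were 47.7, 51.2 and 16.5 CP10K for WT, against 15.9, 41.4 and 14.7 for the mutant. Delta cells had 33.1, 37.4 and 18.2 for WT, against 13.6, 30.2 and 14.9 for the mutant. WT CON and both FSK columns were the high ones in either type. The FSK ratio in alpha cells was 1.07 (1.00 to 1.15) for WT and 2.60 (2.44 to 2.78) for the mutant. Beta cells had 5.56, 8.79 and 3.49 for WT, against 3.84, 8.78 and 4.49 for the mutant, with FSK ratios of 1.58 (1.49 to 1.68) and 2.29 (2.10 to 2.49).

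Pde3b had a similar order of columns. Levels in beta cells under CON, FSK and Ex-4 were 3.67, 4.08 and 1.83 CP10K for WT, against 1.34, 3.68 and 1.61 for the mutant. Alpha cells had 4.32, 3.71 and 1.95 for WT, against 1.58, 2.74 and 1.47 for the mutant, and delta cells 3.61, 4.61 and 1.95 for WT, against 1.32, 3.99 and 2.10 for the mutant. WT CON and both FSK columns were the highest 3 in each type. The FSK ratio in beta cells was 1.11 (1.02 to 1.20) for WT and 2.74 (2.38 to 3.17) for the mutant.

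Pde3a, at low level in endocrine cells, had FSK ratios on opposite sides of 1. Levels in beta cells under CON, FSK and Ex-4 were 0.973, 0.485 and 0.225 CP10K for WT, against 0.327, 0.712 and 0.225 for the mutant. Delta cells had 2.70, 1.71 and 0.672 for WT, against 0.371, 1.11 and 0.688 for the mutant. WT CON was the highest column in both types. The FSK ratio in beta cells was 0.498 (0.407 to 0.609) for WT and 2.18 (1.62 to 2.96) for the mutant. Muscle columns, where the gene was high, had 46.7, 35.8 and 41.1 for WT, against 11.5, 25.5 and 9.09 for the mutant.

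Pde4b had FSK ratios in beta cells of 1.97 (1.67 to 2.34) for WT, from 0.704 to 1.39 CP10K, and of 1.95 (1.58 to 2.42) for the mutant, from 0.654 to 1.28, without reaching the log2 threshold. After Ex-4 it was 0.681 and 0.601. Pde8a, a high-affinity cAMP enzyme, had 2.51, 2.15 and 1.81 CP10K in WT beta cells under CON, FSK and Ex-4, against 1.45, 1.81 and 1.52 for the mutant, and was not past the log2 threshold in any comparison of these 3 cell types. Pde8b in alpha cells had 0.572, 0.854 and 0.355 for WT, against 0.222, 1.15 and 0.202 for the mutant, and was called only after FSK in the mutant, from 18 to 90 counts, a ratio of 5.15 (3.08 to 9.09). Pde4a in beta cells, from 8 to 30 counts a column, had 0.0631, 0.0259 and 0.101 for WT, against 0.0519, 0.0347 and 0.104 for the mutant.

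**Figure D3:**
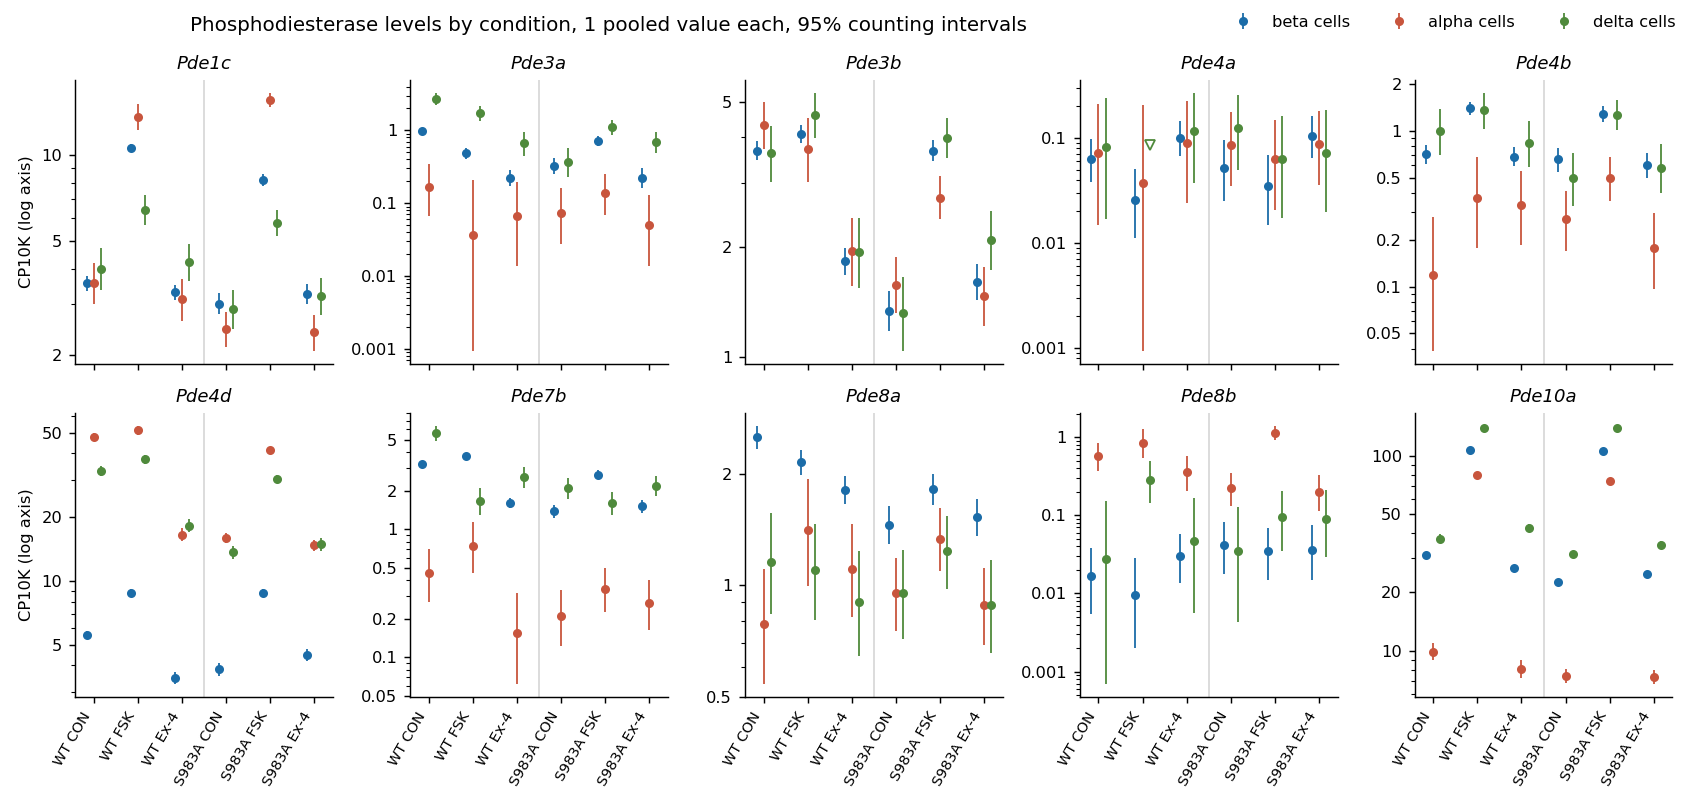
Level of each PDE gene in CP10K (log axis, with its own range in each panel) in the 6 conditions, for beta, alpha and delta cells. Each point is 1 pooled value with its 95% counting interval, and the open triangle is the upper limit of a value of 0 (Pde4a, WT FSK delta cells). Pde10a stands high in the FSK columns of both genotypes, and Pde3b is high in WT CON and both FSK columns.

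After Ex-4, Pde10a and Pde1c stayed within 1.5-fold of CON in beta, alpha and delta cells. The Ex-4 to CON ratio of Pde10a in beta cells was 0.858 (0.833 to 0.884) for WT and 1.10 (1.05 to 1.14) for the mutant, and that of Pde1c 0.931 (0.853 to 1.02) and 1.08 (0.966 to 1.21). The level of Pde10a under FSK divided by that under Ex-4 was 4.03 (3.93 to 4.13) in WT beta, 9.77 (8.74 to 10.9) in WT alpha and 3.27 (3.10 to 3.45) in WT delta cells.

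The PDE genes called after Ex-4 in WT were all lower. Over all genes, 2.18% were lower and 0.941% higher in beta, 4.02% and 1.71% in alpha and 3.32% and 1.74% in delta cells. In beta cells 3 of 9 were lower (Pde3a, Pde3b and Pde7b), where 3.12% of all genes were past the threshold. In alpha cells 2 were lower (Pde3b and Pde4d), where 5.72% were past it, and in delta cells 4 (Pde3a, Pde3b, Pde4d and Pde7b), where 5.06% were. The ratios in beta cells were 0.231 (0.174 to 0.302) for Pde3a, 0.498 (0.449 to 0.553) for Pde3b and 0.499 (0.447 to 0.558) for Pde7b. Pde4d in alpha cells had a ratio of 0.346 (0.318 to 0.377), rank 13 from the bottom of 9487 genes. The second rule, met by 36.3% of all genes in WT beta cells, added Pde4d at 0.626 (0.579 to 0.677).

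In mutant islets no PDE gene was past the threshold after Ex-4. The share of all genes past it was 0.0495% in beta, 0.0422% in alpha and 0.0432% in delta cells. By the second rule, met by 4.26% of all genes in mutant beta cells, no PDE gene was called there. In mutant delta cells the ratios of Pde3a and Pde3b were 1.85 (1.06 to 3.33) and 1.59 (1.18 to 2.15).

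The genotypes were next compared without stimulus. This comparison shares the WT CON column with those of WT islets after FSK and Ex-4, and the mutant CON column with those of mutant islets, so anything particular to these columns enters each. Mutant beta cells had 2 of 9 PDE genes lower (Pde3b and Pde7b), where 5.34% of all genes were past the threshold. Alpha cells had 2 lower (Pde3b and Pde4d), where 7.38% were past it, and delta cells 4 (Pde3a, Pde3b, Pde4d and Pde7b), where 7.05% were. None was higher. In beta cells the mutant to WT ratio was 0.365 (0.317 to 0.418) for Pde3b and 0.431 (0.375 to 0.494) for Pde7b. Pde3a, with a ratio of 0.336 (0.252 to 0.443), was just inside the log2 threshold at −0.572. The second rule was met by 42.5% of all genes and by Pde3a, Pde3b, Pde7b and Pde8a, the last with a ratio of 0.579 (0.503 to 0.665).

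Some PDE genes also had lower levels in mutant than in WT CON outside the endocrine cells. Pde4d in endothelial cells under CON, FSK and Ex-4 had 60.7, 86.4 and 60.3 CP10K for WT, against 26.2, 65.1 and 23.1 for the mutant, and a mutant to WT ratio in CON of 0.431 (0.382 to 0.487). Its Ex-4 ratio there was 0.994 (0.871 to 1.13) for WT and 0.883 (0.764 to 1.02) for the mutant. Endothelial Pde4b had 8.50, 8.36 and 9.36 for WT, against 4.58, 12.1 and 4.28 for the mutant. Pde3a in muscle columns had a mutant to WT ratio in CON of 0.247 (0.182 to 0.334).

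Under FSK, no PDE gene was past the threshold between mutant and WT beta cells, where 0.139% of all genes were, and none was under Ex-4, where 0.0594% were. The second rule was met by 14% and 7.68% of all genes, and by no PDE gene. The mutant to WT ratio of Pde3b in beta cells was 0.902 (0.825 to 0.984) under FSK and 0.878 (0.761 to 1.01) under Ex-4. That of Pde4d was 0.999 (0.943 to 1.06) under FSK, 1.29 (1.17 to 1.41) under Ex-4 and 0.690 (0.632 to 0.753) in CON.

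**Figure D4:**
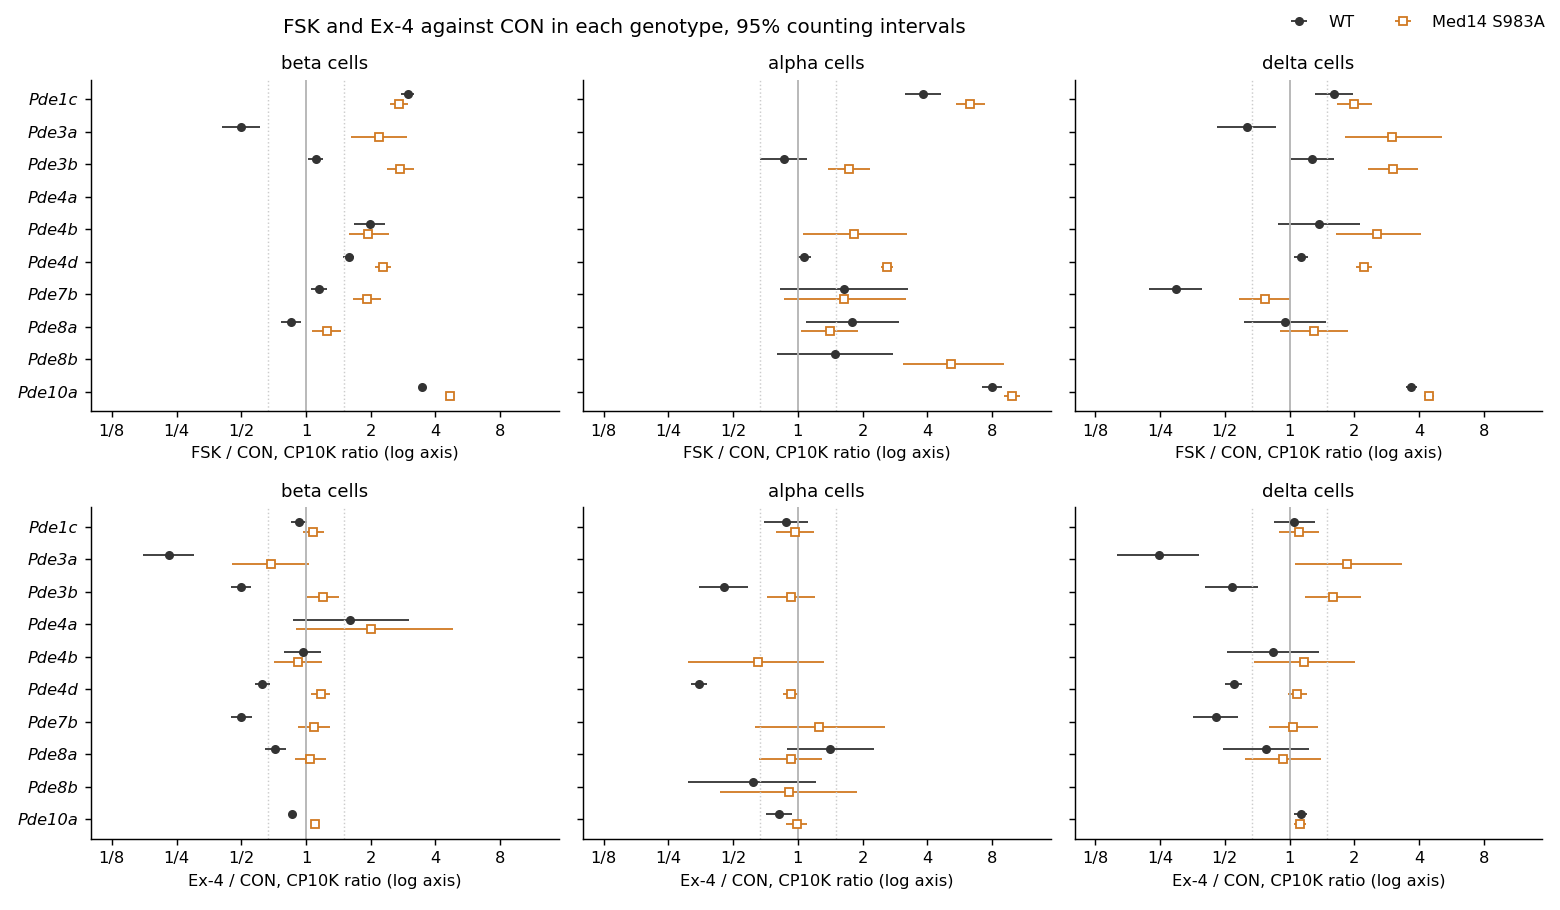
Ratio of FSK to CON (upper row) and of Ex-4 to CON (lower row) in CP10K, on a log axis, for each PDE gene in beta, alpha and delta cells of WT (filled) and Med14 S983A islets (open), with 95% counting intervals. Dotted lines mark 1.5-fold either way, and ratios with under 10 counts in a column are not drawn. Pde10a lies far to the right after FSK for both genotypes, at 7.99 and 9.90 in alpha cells.

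Gene length moved with 3 of these comparisons across all genes. In WT beta cells after Ex-4 the trend of the log2 difference was −0.11 at the length of Pde3b and −0.55 at that of Pde4d. For mutant against WT in CON it was −0.17 and −0.66 at these lengths, and for mutant beta cells after FSK 0.14 and 0.45. The measured differences of Pde4d were −0.55, −0.44 and 1.02 in that order, and those of Pde3b −0.723, −0.998 and 0.999. Pde3b was thus farther from 0 than the trend in all 3 and Pde4d clearly so only after FSK. With the trend subtracted, Pde3b was the only PDE gene still past the threshold in beta cells in the first and second comparison, and Pde1c, Pde3b and Pde10a were past it after FSK in mutant beta cells. In alpha cells Pde3b and Pde4d stayed past it after Ex-4 in WT, at −0.70 and −0.94. They also did so for mutant against WT in CON, at −0.85 and −0.94. Pde4b came past it upward in these 2 comparisons, at 0.62 and 0.60, but the WT CON alpha column they share held only 5 counts (0.119 CP10K). Its measured difference after Ex-4 was 0.25, with a ratio interval (0.963 to 9.80) that includes 1, and the trend subtracted was −0.37. A gene this low cannot fall by as much as that trend on the log2 scale, so the upward calls of Pde4b carry little weight. In delta cells Pde3a (−0.91) and Pde7b (−0.60) kept their calls after Ex-4 in WT, and Pde3b (−0.55) and Pde4d (−0.19) lost them. For mutant against WT delta cells in CON, Pde3a, Pde3b and Pde7b kept their calls and Pde4d (−0.50) lost its own. After FSK, the calls of Pde4d (0.56) and Pde7b (0.33) ended in mutant beta cells and those of Pde3a (0.44) and Pde4b (0.40) in mutant delta cells.

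**Figure D5:**
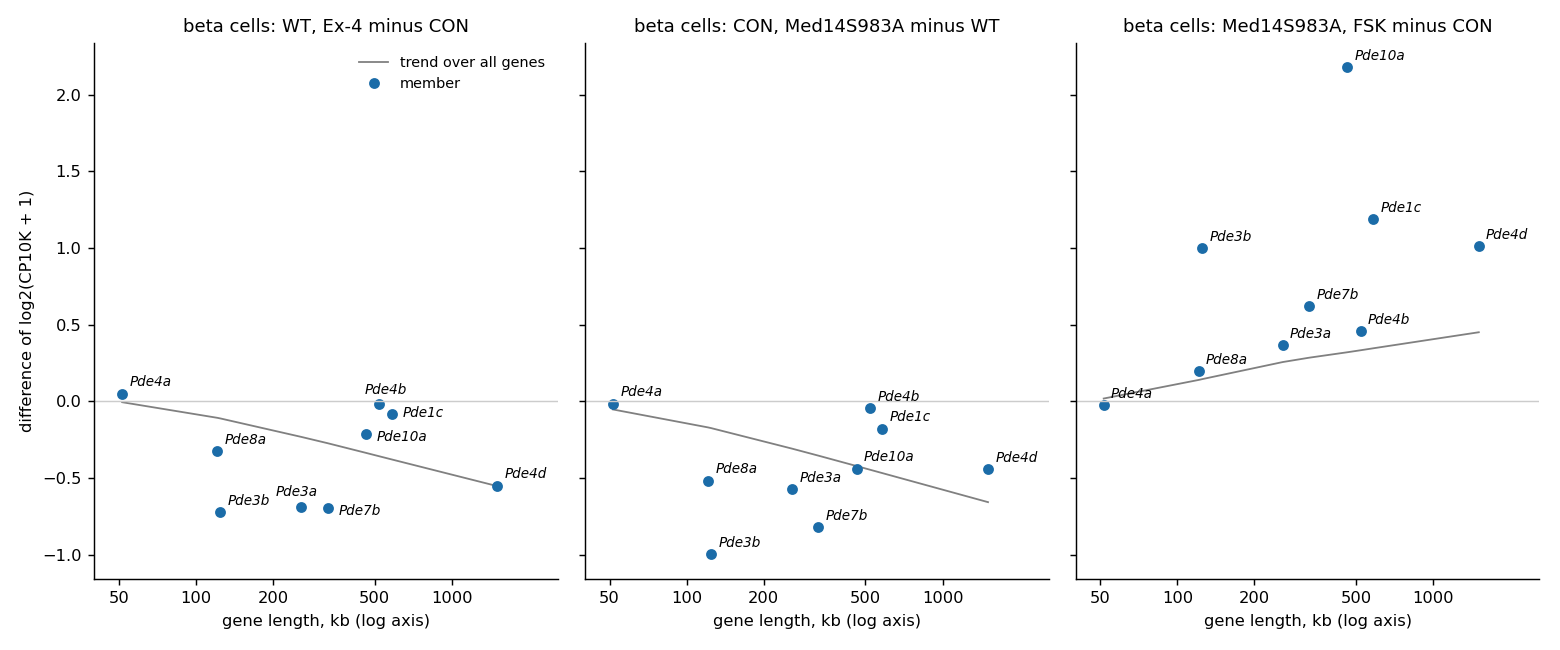
Difference of log2(CP10K + 1) in beta cells for the 9 tested PDE genes (points) against gene length in kb (log axis), for WT Ex-4 minus CON, mutant minus WT in CON, and mutant FSK minus CON. The grey line joins the trend over all tested genes at the lengths of these PDE genes, from −0.11 at Pde3b to −0.55 at Pde4d in the first panel. Pde10a lies far above the line in the last panel.

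The median log2 difference of the 9 tested PDE genes in beta cells after FSK was 0.16 for WT and 0.62 for the mutant, beside −0.05 and −0.02 over all tested genes. After Ex-4 it was −0.32 and 0.08, beside 0.03 and −0.01, and for mutant against WT in CON it was −0.44, beside 0.00.

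Other PDE genes were counted from a list of 14, of which 11 were in the table and 7 passed the filter in beta cells (Pde2a, Pde6b and Pde6g were not analysed here). None of these was past the threshold in beta cells in any comparison. Of all genes, 2.24% were past it for FSK against CON in WT and 5.34% for mutant against WT in CON. All but Pde5a were at or under 0.435 CP10K in every beta column, too low to reach it. By the second rule, Pde11a was higher and Pde4c lower after FSK in WT (34.1% of all genes met it) and mutant (47.5%). Pde1a was also lower after FSK in WT. Pde5a, Pde6d and Pde7a were lower after Ex-4 in WT (36.3%), and Pde6d and Pde7a in mutant CON (42.5%). The cGMP-specific Pde5a had 2.83 CP10K in WT CON beta cells and 1.61 to 1.93 in the other 5 beta columns. Pde1a was lower in mutant than in WT CON alpha cells, at 0.198 against 1.03 CP10K, and Pde7a was higher after FSK in mutant delta cells, at 1.09 against 0.388.

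Of 14 genes that make or raise cAMP, 7 passed the filter in beta cells. In beta cells after FSK 1 was higher and 1 lower in WT, where 2.24% of all genes were past the threshold, and 1 higher and 2 lower in the mutant, where 7.83% were. The higher one was Gnas, for the stimulatory G protein subunit, at 12.7 against 2.09 CP10K for WT and 15.8 against 3.15 for the mutant. Its locus holds overlapping and antisense transcripts whose reads may be mixed in. The incretin receptor gene Glp1r was lower in WT (5.55 against 9.39), and Gipr (1.32 against 4.14) and the cyclase gene Adcy6 (0.395 against 1.70) were lower in the mutant. None was past the threshold in beta cells after Ex-4, against 3.12% of all genes for WT and 0.0495% for the mutant. By the second rule, met by 36.3% of all genes after Ex-4 in WT, Adcy6 (ratio 1.64) and Gcgr (1.85) were higher there. Adcy9, another cyclase, was lower by that rule (0.660). It was called lower in mutant CON beta cells (3.03 against 5.53), where 5.34% of all genes were past the threshold. In WT delta cells after Ex-4 the cyclase genes Adcy2 and Adcy8 were lower, against 5.06% of all genes past the threshold.

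Of 11 anchoring proteins and other partners, 10 passed in beta cells and none was past the threshold there after FSK in WT, against 2.24% of all genes. Akap9, an anchor of protein kinase A, had 4.18, 3.06 and 6.96 CP10K under CON, FSK and Ex-4 for WT, against 8.35, 3.15 and 7.17 for the mutant. It was called higher after Ex-4 in WT and in mutant CON, and lower after FSK in the mutant, comparisons in which 3.12%, 5.34% and 7.83% of all genes were past the threshold. Rapgef4, for the cAMP sensor Epac2, was called lower in mutant CON (5.70 against 9.41) and higher after FSK in the mutant (10.3). The anchor gene Akap6 was called higher after FSK in the mutant (2.19 against 0.743) but not lower in mutant CON (log2 difference −0.43). Its linear ratio of mutant to WT in CON was 0.550 (0.451 to 0.667), which met the second rule, as 42.5% of all genes did. No gene of this list was past the threshold in beta cells after Ex-4 in the mutant.

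Of 11 genes of cGMP synthesis and action, 8 were in the table and 6 passed in beta cells. The kinase gene Prkg1 had 3.32, 4.07 and 1.18 CP10K under CON, FSK and Ex-4 for WT, against 0.795, 3.01 and 0.820 for the mutant. It was called lower after Ex-4 in WT (3.12% of all genes past the threshold) and in mutant CON (5.34%), and higher after FSK in the mutant (7.83%). The guanylyl cyclase gene Gucy2c was called higher after FSK in the mutant (from 0.244 to 1.11), but not lower after Ex-4 in WT or in mutant CON. Its linear ratio of mutant to WT in CON was 0.425 (0.301 to 0.590), which met the second rule, as 42.5% of all genes did. No gene of this list was past the threshold in beta cells after FSK in WT or after Ex-4 in the mutant. Prkg1 was also called lower in WT alpha cells after FSK, against 2.51% of all genes past the threshold, and after Ex-4, against 5.72%. Both calls share the WT CON alpha column. In mutant alpha cells Prkg1 was called higher after FSK, against 4.02%. It was also called lower in mutant than in WT CON alpha cells, against 7.38%.

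The 3 genes most like each PDE gene were sought by Pearson's r over the 18 columns of beta, alpha and delta cells, among 8561 genes that passed the filter in all 3 types. These columns share conditions and cell types, so r is a description. For Pde10a they were Tspan15 (0.97), Rian (0.94) and Trak1 (0.94). For Pde1c they were Dusp10 (0.94), Abhd2 (0.93) and Creb1 (0.92), the last being the gene of CREB. Pde4d had Man1c1 (0.98), Ptk2b (0.98) and Xkr4 (0.97), and Pde3b had Tcf12 (0.97), Gm33228 (0.96) and Fbxw11 (0.95). Pde7b had Trpm3 (0.95), Mapk10 (0.94) and Ptprt (0.94), and Pde3a had Cpne4 (0.95), Tmtc2 (0.95) and Fam171a1 (0.94). Pde4b had Abcc4 (0.96), Stim1 (0.96) and Vapb (0.95), and Pde8a had Nckap5 (0.94), Thsd4 (0.93) and Frmd5 (0.92). The sparsely counted Pde8b had Oxtr (0.96), Nos1ap (0.95) and Slc41a2 (0.95), and Pde4a had Akr1e1 (0.93), Fignl2 (0.88) and Taf8 (0.86). Within the family, r was 0.82 for Pde4b and Pde10a, 0.77 for Pde3a and Pde7b, and 0.76 for Pde1c and Pde10a.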

How the data were processed

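The authors deposited natural log values, ln(1 + 10000 × count / column total), for nuclei pooled by condition and annotated cell type. Per the methods, reads went to mm39 with split-pipe, nuclei outside limits on counts, features and mitochondrial share were removed, and cell types were assigned in Seurat. The annotation release, and whether the pooled counts were raw, were not stated. Counts were recovered here from the column total that makes the values whole (100% within 0.001). In each cell type a gene entered the comparisons if its 6-condition mean was at or above percentile 40 of the genes detected, which left 10093 genes in beta, 9487 in alpha and 9256 in delta cells. The main call was 1.5-fold on log2(CP10K + 1), and the second rule a linear ratio of 1.5 with a 95% interval that leaves out 1. A value of 0 allows up to 3 counts. Recovery of totals and interval coverage were tested on simulated data. Gene lengths, transcript starts and motif windows came from GRCm39 with GENCODE M39.

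The 10 genes, the lists and the rules were chosen with earlier results of these data known. All 10 were named in every comparison, list genes when past the threshold in beta cells (at most the 2 highest and 2 lowest), and the 3 genes of highest r for each. Of the list genes past it in alpha and delta cells only some were named. A list gene not named there may still have been called. List genes that met only the second rule were also named in part. Pde5a, and the full set of conditions for Akap9 and Prkg1, were added after their values were seen. The alternatives were pseudocounts of 0.1 and 1 times the median on linear CP10K, no filter, percentile 75, 2-fold, centring on the median, leaving 13 ribosomal RNA linked or mitochondrial genes out of the totals, and subtracting a length trend (lowess, span 0.3). Software was Python 3.11.15 with numpy 2.4.6 and pandas 2.3.3, intervals came from scipy 1.17.1, trends from statsmodels 0.14.6 and plots from matplotlib 3.10.9.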

Additional observations from a re-analysis of the deposited data

Results flagged for a closer look

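For several PDE genes the ratios to CON of 2 groups lay on opposite sides of 1, with counting intervals apart from 1 in both. With 1 pooled value for each condition and cell type, the difference between the groups was not tested in any of these cases, and several share a CON column. Each is given as both ratios and the first divided by the second.

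WT was set against the mutant in 8 cases. For Pde3a after FSK the ratios were 0.498 against 2.18, a quotient of 0.229, in beta cells and 0.631 against 2.99, a quotient of 0.211, in delta cells. For Pde3a after Ex-4 in delta cells they were 0.248 against 1.85, a quotient of 0.134. For Pde3b after Ex-4 they were 0.498 against 1.20, a quotient of 0.415, in beta cells and 0.538 against 1.59, a quotient of 0.340, in delta cells. Pde4d after Ex-4 in beta cells had 0.626 against 1.17, a quotient of 0.536. Pde8a after FSK in beta cells had 0.854 against 1.25, a quotient of 0.684. Pde10a after Ex-4 in beta cells had 0.858 against 1.10, a quotient of 0.782.

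Cell types of WT islets were set against each other in 4 cases. Pde7b after FSK had 1.15 against 0.296, a quotient of 3.89, for beta against delta cells, and Pde8a after FSK had 0.854 against 1.79, a quotient of 0.476, for beta against alpha cells. Pde10a after Ex-4 had 0.858 against 1.13, a quotient of 0.761, for beta against delta cells, and 0.818 against 1.13, a quotient of 0.725, for alpha against delta cells.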

How the results depend on the processing

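No paired analysis was possible because each condition has 1 pooled column per cell type, and no replicate could be left out. Counts of PDE genes past the threshold were recomputed under each alternative. Of these values 132 stayed within 1.5 times the original and 28 did not, and no recomputed difference reversed. No filter and the 75th percentile filter changed no count. With the median set to 0 the FSK counts in WT beta and delta cells were 3, from 2 each. Rescaling without ribosomal RNA linked and mitochondrial genes ended the calls of Pde7b in mutant beta cells (0.54) and Pde4b in mutant delta cells (0.56) after FSK. With the pseudocount at 0.1 times the median on linear CP10K, FSK gave 6 (beta), 6 (alpha) and 5 (delta) in WT, from 2 each, and 8 in mutant alpha cells, from 4. After Ex-4 they became 6 in WT alpha, 1 in mutant beta and 3 in mutant delta cells. In mutant against WT CON they became 4 in beta and 6 in alpha cells, and over all 6 conditions 5 between beta and alpha and 5 between alpha and delta cells. With 1 times the median, they were 5, 4 and 4 after FSK in WT beta, alpha and delta cells and 4 in mutant against WT beta cells in CON. A 2-fold threshold left 3 in mutant beta and 3 in mutant delta cells after FSK. After Ex-4 it left 0 in WT beta, 1 in WT alpha and 1 in WT delta cells. It left 0 in mutant against WT beta cells in CON, 1 between beta and alpha and 0 between alpha and delta cells. Removal of the length trend left 3 in mutant beta cells after FSK, 1 in WT beta and 2 in WT delta cells after Ex-4, 1 in mutant against WT beta cells in CON, and 1 between alpha and delta cells. The pseudocount acts through low genes by construction. Depth limits Pde4a and Pde8b in endocrine cells and all members in ductal columns.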
